A study of Mus musculus with 12 samples.

Results

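Dichloroacetate was compared with saline in the kidneys of uninjured mice, over every expressed gene. The comparison used 6 of the 12 libraries of the series. In the dichloroacetate group, 3 mice had received the drug by intraperitoneal injection each day for 6 days at 250 mg/kg. In the saline group, 3 mice had received saline by the same route for the same 6 days. All were male mice of the inbred BALB/c strain, 8 weeks old, the labels name no genetic change in any group, and whole kidney RNA was sequenced from each mouse. The other 6 libraries came from kidneys of mice killed 24 h after cisplatin at 20 mg/kg, a nephrotoxic anticancer drug, with or without dichloroacetate. Mice of the combination had received dichloroacetate for 5 days and again with cisplatin, and mice given cisplatin alone had received saline for 5 days. These libraries served to share an estimate of the spread and for 1 further comparison given at the end. Of 28991 gene identifiers in the count table, 20370 were expressed enough to be tested.

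Dichloroacetate is a small acid that inhibits the pyruvate dehydrogenase kinases. These kinases phosphorylate and switch off the pyruvate dehydrogenase complex, which turns pyruvate into acetyl-CoA in mitochondria, so the drug favours glucose oxidation over lactate formation. It is broken down by the glutathione transferase Gstz1. Proximal tubule cells, the most abundant cells of the kidney cortex, normally oxidise mostly fatty acids, and in male mice they carry a set of genes that androgens raise. An effect on kinase activity leaves no direct trace in RNA, so the counts below describe only transcripts.

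The 3 dichloroacetate libraries held 41525403 to 62237514 counts and the 3 saline libraries 38236592 to 55832441. Values are given as CPM, counts scaled to library size with TMM factors. Transcripts of mitochondrial DNA took 15.4%, 15.6% and 14.5% of counts in dichloroacetate mice and 14.8%, 14.1% and 13.9% in saline mice, and these ranges overlapped. In a principal component analysis of the 500 most variable genes over the 6 libraries, the first component (35.1% of the variance) set dichloroacetate mouse 3 apart (scores of -10.8, -14.9 and 22.8 in dichloroacetate mice against -1.31, 3.46 and 0.698 in saline mice). The second component (20.8%) mixed the groups, with 2.75, -4.9 and -2.84 in dichloroacetate mice and 8.27, 12.6 and -15.8 in saline mice. The third component (18.5%) placed the dichloroacetate mice at 9.29, 4.70 and 9.53 and the saline mice at -0.684, -11.7 and -11.2. The SD of log2 differences between libraries was 0.190 to 0.267 for a dichloroacetate library against a saline library and 0.158 to 0.250 for libraries of 1 group.

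Most changes with dichloroacetate alone were small, and the number of genes called differed between tools. Expression of 26 genes rose and that of 37 fell at an adjusted p under 0.05 (edgeR's quasi-likelihood test, Benjamini-Hochberg adjustment). The 63 calls were 0.309% of the genes tested, with 0.128% higher and 0.182% lower. Their log2 fold changes ran from -1.73 to 0.98 with a median size of 0.54. A change of at least 1 log2 unit, a doubling or halving, was reached by 1 gene, Dpys. At an unadjusted p under 0.05 there were 2427 genes (11.9%), against 1018.5 if none differed. In all 63 called genes the 3 dichloroacetate mice lay wholly above or wholly below the 3 saline mice. The same held for 7.64% of all tested genes above and 8.37% below. Leaving out 1 mouse moved the number of calls to between 16 (without dichloroacetate mouse 1) and 126 (without saline mouse 3), and a fit of the 6 libraries alone called 15 genes. DESeq2 called 350 of the 20370 genes, 187 higher and 163 lower, and limma called 51, 21 higher and 30 lower. Counts of list members called by DESeq2 or limma below stand against these totals, not against the edgeR shares. Of the 34 called genes selected by the rule in the methods, 10 were called under every alternative: Cry1, Acsm3, Eri2, Malat1, the unnamed identifier ENSMUSG00000092267, Dpys, Pzp, Cyp2d26, Apoe and Sugct.

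**Figure D1:**
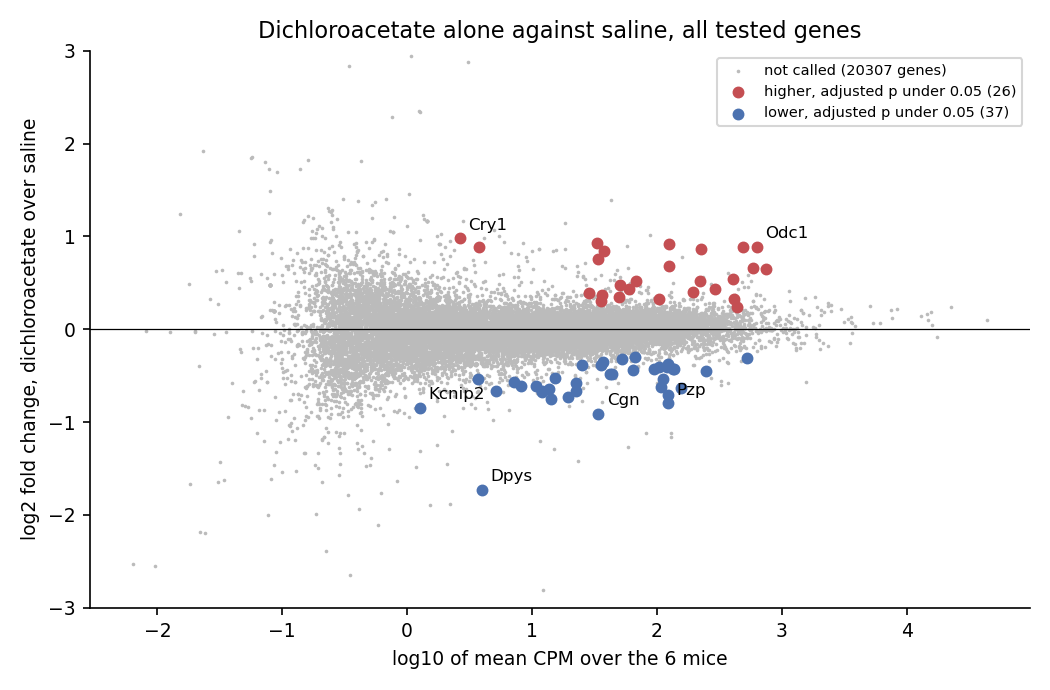
Each point is 1 tested gene, with the log10 of its mean CPM over the 6 mice on the x axis and the log2 fold change of dichloroacetate over saline on the y axis. The 26 genes called higher (red) and the 37 called lower (blue) lie within 1 log2 unit of 0 apart from Dpys at -1.73, and 9 genes beyond 3 log2 units and 8 with no count in these mice are not drawn.

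The 63 identifiers do not stand for 63 separate transcripts. Joining called genes that overlap in the genome or share at least 90% of their sequence over at least 80% of their length left 54 loci, 22 higher and 32 lower. The sources used here do not say whether the counting used strand, so reads of overlapping genes on opposite strands cannot be told apart. Eri2 overlaps Acsm3 on the opposite strand and its counts were 45.5% to 54.6% of those of Acsm3 over the 12 libraries. In the same way B230322F03Rik lies opposite the start of Nudt19, AW495222 opposite Dmgdh, and Gm24873, Gm27043 and Gm25020 opposite Sugct. Gm26098 lies within Sugct on the same strand. Gm13339, called higher at 0.24 log2 units, is a pseudogene on chromosome 2 that is 96.7% identical over its whole length to the mitochondrial gene mt-Nd2, which had a log2 fold change of 0.21 (adjusted p 0.10). The unnamed identifier ran at 5.18% to 5.88% of the count of Malat1 in every library.

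Of the male-biased kidney genes that androgens raise, 4 of 22 tested members rose and none fell by edgeR's test, against 0.128% of all genes rising. This list, like all others here, was chosen with earlier results of these data known, so its counts describe its members only. DESeq2 called 5 higher and 1 lower, and limma 4 higher and none lower. The median log2 fold change of the list was 0.24, against -0.01 over all genes. At an unadjusted p under 0.05, 8 members were higher (5.7% of all genes) and 2 lower (6.21%). Odc1, the ornithine decarboxylase that opens polyamine synthesis (chr12:17544794-17551505, GRCm38, plus strand), had 956, 685 and 821 CPM in dichloroacetate mice and 322, 501 and 505 CPM in saline mice. Every dichloroacetate mouse was above every saline mouse, and edgeR gave a log2 fold change of 0.89 with an SE of 0.15 (adjusted p 0.031). Gusb, the lysosomal beta-glucuronidase (chr5:129989011-130003049, minus strand), had 203, 144 and 147 CPM in dichloroacetate mice against 88.6, 97.7 and 75.3 CPM in saline mice. The difference was 0.92 log2 units (SE 0.17, adjusted p 0.041), and dichloroacetate mouse 1 was the highest of all 6. Acsm3, a mitochondrial acyl-CoA synthetase for medium-chain fatty acids (chr7:119760923-119787513, plus strand), had 710, 535 and 657 CPM with dichloroacetate and 319, 367 and 341 CPM with saline. These groups were well apart (log2 fold change 0.89, SE 0.11, adjusted p 0.0054). Nudt19, a peroxisomal enzyme that cleaves coenzyme A (chr7:35547185-35556304, minus strand), had 851, 858 and 1005 CPM in dichloroacetate mice and 454, 567 and 706 CPM in saline mice. The saline mice spread more widely but stayed below every dichloroacetate mouse (log2 fold change 0.65, SE 0.12, adjusted p 0.041).

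The list did not move as 1 block. Prlr, the prolactin receptor, had 7.98, 14.1 and 16.04 CPM in dichloroacetate mice and 33.0, 23.2 and 45.03 CPM in saline mice. Its log2 fold change of -1.42 missed the threshold (adjusted p 0.12). Kap, the kidney androgen-regulated protein, averaged 24441 ± 793 CPM with dichloroacetate and 20755 ± 1477 CPM with saline (SD, n = 3 each), a difference of 0.24 log2 units that did not pass (adjusted p 0.38). Prlr and Kap were chosen after their values were seen. Leaving out dichloroacetate mouse 1, dichloroacetate mouse 3 or saline mouse 2 left Acsm3 as the 1 member called, and leaving out saline mouse 1 left Acsm3 and Odc1. Nudt19 was not called without dichloroacetate mouse 2, nor was Gusb without saline mouse 3. In the fit of the 6 libraries alone, Acsm3 was the 1 member called. The summed level of 41 proximal tubule transport genes was 19842 ± 906 CPM with dichloroacetate and 20808 ± 940 CPM with saline (SD, n = 3 each, exact permutation p 0.3, where 0.1 is the smallest possible). In whole kidney, fewer cells of a type and less RNA per cell cannot be told apart.

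Odc1 brought 2 processed pseudogenes into the calls, Gm9115 on chromosome X and Gm7278 on chromosome 1, whose transcripts are 96.7% and 94.8% identical to that of Odc1. Their counts ran at 4.73% to 5.37% and 5.81% to 6.26% of those of Odc1 in all 12 libraries, and how the authors' counting divided such reads is not known. Coding bases 301 to 360 of Odc1 (GENCODE M21 transcript) and the best matching stretches of both copies show how few bases set them apart. Capitals mark the 3 bases of Gm9115 and the 5 bases of Gm7278 that differ from Odc1.

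Odc1: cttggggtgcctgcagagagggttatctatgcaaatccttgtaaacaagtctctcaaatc
Gm9115: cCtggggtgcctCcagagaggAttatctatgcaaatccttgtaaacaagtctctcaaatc
Gm7278: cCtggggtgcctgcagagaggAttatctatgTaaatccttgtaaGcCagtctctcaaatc

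**Figure D2:**
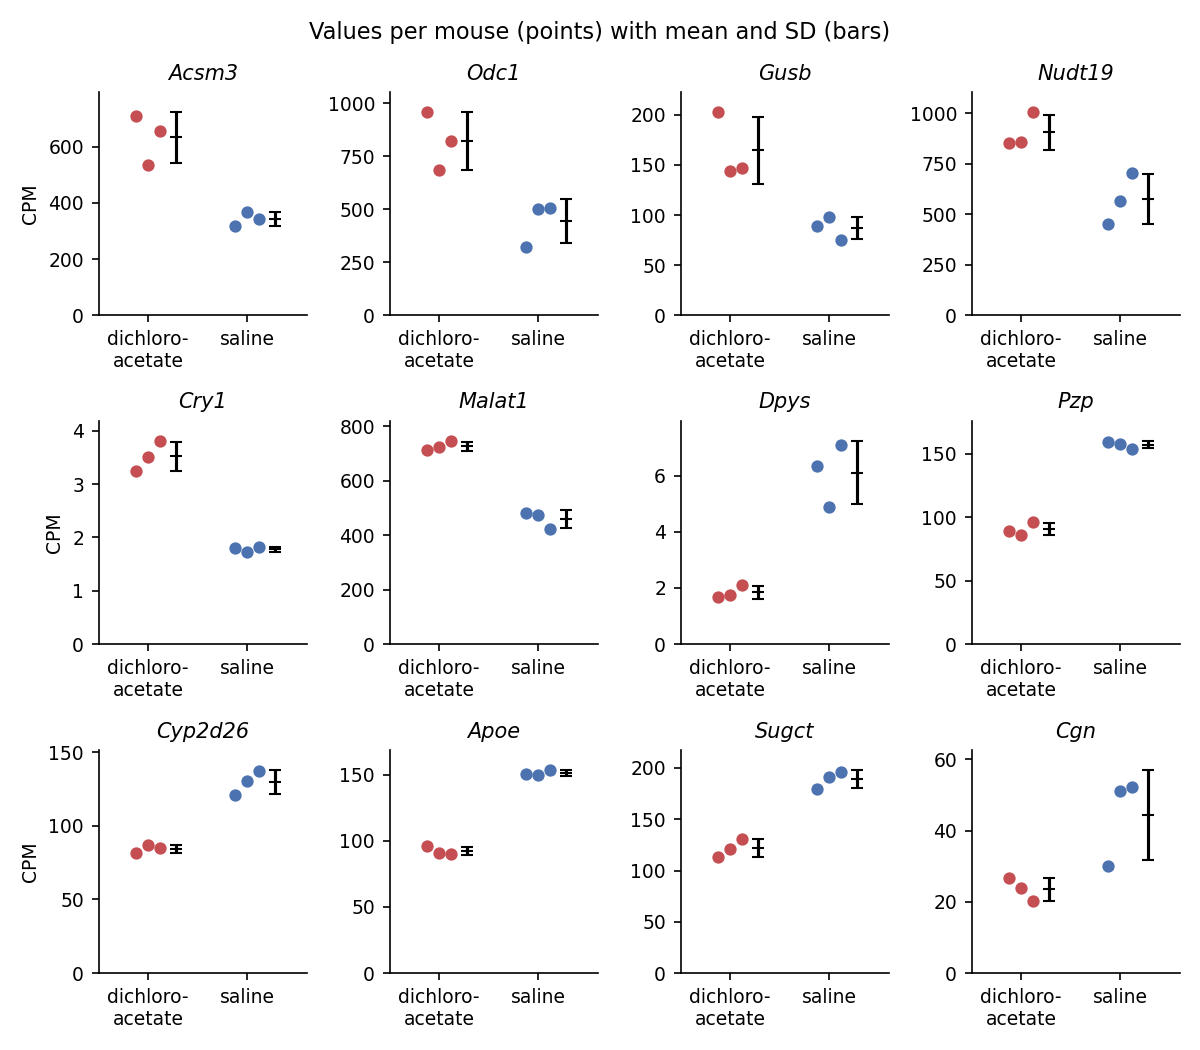
CPM of 12 called genes in each mouse, with the 3 dichloroacetate mice (red) left of the 3 saline mice (blue) and the mean and SD beside each group, each y axis starting at 0. The groups do not overlap in any panel. Pzp (90.4 ± 4.88 against 157 ± 2.74 CPM) and Apoe have narrow groups, whereas in Cgn saline mouse 1 (29.9 CPM) sits close to the dichloroacetate mice.

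The largest rise was that of Cry1, a repressor in the circadian clock (chr10:85131700-85185064, minus strand). It had 3.25, 3.51 and 3.80 CPM in dichloroacetate mice and 1.79, 1.73 and 1.81 CPM in saline mice. The groups were far apart for so low a level (log2 fold change 0.98, SE 0.11, edgeR adjusted p 0.0025). Of 25 clock genes tested, Cry1 was the 1 that rose by edgeR's test, against 0.128% of all genes, and none fell. DESeq2 and limma also called 1 member higher and none lower. At an unadjusted p under 0.05, 7 members were higher (5.7% of all genes) and 3 lower (6.21%), with a list median of 0.09. Of the clock activators, Npas2 and Arntl had negative values that did not pass in the fit that leaves out the mouse number. Npas2 had 2.43, 1.27 and 0.539 CPM in dichloroacetate mice and 5.31, 2.53 and 1.55 CPM in saline mice (log2 fold change -1.09, adjusted p 0.33). Arntl had 3.62, 1.89 and 1.43 CPM against 6.62, 3.24 and 2.56 CPM in saline mice (-0.80, adjusted p 0.40). Per2, a clock repressor, had 39.6, 56.4 and 64.5 CPM in dichloroacetate mice and 28.5, 34.9 and 47.7 CPM in saline mice (0.53, adjusted p 0.30). In both groups mouse 1 had the most Npas2 and Arntl and the least Per2, mouse 3 the reverse, and mouse 2 lay between. The ratio of Arntl in the dichloroacetate mouse to that in the saline mouse of the same number was 0.546, 0.583 and 0.558. With the number as a block, the edgeR adjusted p was 0.19 for Npas2, 0.24 for Arntl and 0.032 for Per2 over the 12 libraries, and 0.040, 0.052 and 0.031 in the 6 libraries alone. Cry1 varied much less within a group. The labels do not give the hour at which each mouse was killed, and its part in these values was not tested. Npas2, Arntl and Per2 were chosen after their values were seen.

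The promoters of Cry1 and Acsm3 are shown because both genes rose under every alternative and hold a motif bound by clock factors. Those of Eri2 and Malat1, which also rose under every alternative, hold neither of the motifs marked below. Each run covers 250 bases before and 50 bases after the RefSeq start (GRCm38.p6), Cry1 at chr10:85185005-85185304 on the minus strand and Acsm3 at chr7:119760673-119760972 on the plus strand. Capitals mark the E-box CACGTG, 60 bases before the start of Cry1, and the D-box TTATGTAA, 63 bases before the start of Acsm3.

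Cry1: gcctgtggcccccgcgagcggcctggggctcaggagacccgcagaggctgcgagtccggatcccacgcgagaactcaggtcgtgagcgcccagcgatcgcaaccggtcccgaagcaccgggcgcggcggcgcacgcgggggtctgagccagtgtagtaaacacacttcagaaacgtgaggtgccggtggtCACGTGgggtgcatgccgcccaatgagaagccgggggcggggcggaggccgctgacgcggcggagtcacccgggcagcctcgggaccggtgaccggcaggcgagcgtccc
Acsm3: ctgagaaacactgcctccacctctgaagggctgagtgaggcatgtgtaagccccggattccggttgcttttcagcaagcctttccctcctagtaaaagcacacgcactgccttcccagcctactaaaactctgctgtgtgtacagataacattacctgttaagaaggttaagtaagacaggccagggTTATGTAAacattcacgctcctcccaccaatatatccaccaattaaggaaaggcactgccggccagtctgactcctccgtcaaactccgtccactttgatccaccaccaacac

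Searched on both strands in 32851 promoters of 300 bases, CACGTG was found in 7.15% and TTATGTAA in 0.938%. RefSeq held 23 promoters for 19 of the genes that rose and 43 promoters for 28 of those that fell. CACGTG was in 2 of the 23 (8.7%) and 1 of the 43 (2.33%), and TTATGTAA was in 1 and none. The half-site AGAACA of the androgen and glucocorticoid receptor element was in none of the 23 promoters of risen genes and in 14 of the 43 promoters of fallen genes (32.6%), against 19% of all promoters. As 5 of the 14 are promoters of 1 gene, Slc7a7, the count over genes was 10 of 28 (35.7%), against 21.3% of all genes with a promoter searched. These are matches of letters in a short window.

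Malat1, a long noncoding RNA kept in the nucleus (chr19:5795690-5802672, minus strand), had 711, 722 and 744 CPM in dichloroacetate mice and 482, 473 and 422 CPM in saline mice. The groups were tight and far apart (log2 fold change 0.66, SE 0.08, adjusted p 0.0045). Smcp, known for a protein of the sperm mitochondrial capsule, had 4.86, 4.15 and 5.58 CPM against 2.30, 2.70 and 2.88 CPM in saline mice (0.89, SE 0.14, adjusted p 0.028). The other rises were smaller, and these genes are named after their values were seen. Agps, which makes ether lipids in peroxisomes, rose by 0.54 log2 units, and Pank3, which starts coenzyme A synthesis, by 0.32. Acot9, a mitochondrial acyl-CoA thioesterase, rose by 0.48. Ccng1, cyclin G1 and a target of p53, was the 1 of 31 p53 targets called by edgeR, against 0.128% of all genes rising. It rose by 0.40 (219 ± 20.9 CPM with dichloroacetate and 167 ± 7.81 CPM with saline, SD, n = 3 each). DESeq2 called 2 p53 targets higher and 1 lower, and limma 1 higher.

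Among the falls, Dpys changed most. It encodes dihydropyrimidinase, an enzyme of pyrimidine breakdown (chr15:39768487-39857470, minus strand), and had 1.69, 1.74 and 2.10 CPM in dichloroacetate mice and 6.36, 4.89 and 7.07 CPM in saline mice. The groups differed by -1.73 log2 units (SE 0.18, edgeR adjusted p 0.0022). Pzp, a protease inhibitor of the alpha-2-macroglobulin family (chr6:128483567-128526720, minus strand), had the smallest p of all genes. It had 89.3, 86.2 and 95.8 CPM in dichloroacetate mice against 159, 158 and 154 CPM in saline mice (-0.80, SE 0.06, adjusted p 0.00019). Apoe, the lipoprotein component apolipoprotein E (chr7:19696109-19699188, minus strand), averaged 92.3 ± 3.12 CPM with dichloroacetate and 151 ± 1.97 CPM with saline (-0.71, adjusted p 0.0049). Sugct, a mitochondrial enzyme that moves coenzyme A to glutarate (chr13:16857472-17695553, minus strand), averaged 122 ± 8.74 CPM with dichloroacetate and 189 ± 8.82 CPM with saline (-0.63, adjusted p 0.0068).

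Genes of drug and glutathione metabolism gave some of the other falls. Of 36 cytochrome P450 and other drug metabolism genes, 2 fell and none rose by edgeR's test, against 0.182% of all genes falling, and DESeq2 called 3 lower and limma 2. Cyp2d26 had 81.5, 86.7 and 84.9 CPM in dichloroacetate mice and 121, 130 and 137 CPM in saline mice (-0.62, SE 0.07, adjusted p 0.0032). Its paralog Cyp2d22 fell by 0.38 and kept its call in 2 of the 6 fits that leave out a mouse. Of 33 glutathione genes, 2 fell and none rose by edgeR's test, against 0.182% of all genes falling. Mgst1, a membrane-bound glutathione transferase, fell by 0.48 and Gstt1 by 0.42. The call of Gstt1 was kept in 1 of the 6 fits that leave out a mouse. DESeq2 called 3 of the 33 lower and 2 higher, and limma 2 lower. Gstz1, which metabolises the drug, had 295, 314 and 337 CPM in dichloroacetate mice and 283, 326 and 318 CPM in saline mice, and these groups overlapped (0.03, SE 0.07, adjusted p 0.92). Abcb1b, the drug exporter P-glycoprotein, was the 1 of 28 organic ion transport genes that edgeR called, against 0.182% of all genes falling. It was also the 1 that limma called, and DESeq2 called 3 lower. Abcb1b had 8.07, 10.2 and 13.6 CPM in dichloroacetate mice against 16.9, 18.0 and 18.2 CPM in saline mice (-0.75, SE 0.14, edgeR adjusted p 0.041). Its edgeR call was kept in 1 of the 6 fits that leave out a mouse.

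Tubular transport and cell contact genes also appear among the falls. Of 41 proximal tubule transport genes, 2 fell and none rose by edgeR's test, against 0.182% of all genes falling, with a list median of -0.10. DESeq2 called 5 lower and 1 higher, and limma 1 lower. At an unadjusted p under 0.05, 12 were lower (6.21% of all genes) and 1 higher (5.7%). Slc7a9, the light chain of the apical cystine carrier, averaged 104 ± 9.66 CPM with dichloroacetate and 138 ± 5.81 CPM with saline (-0.41). Slc7a7, which carries basic amino acids out on the basolateral side, averaged 115 ± 6.46 CPM with dichloroacetate and 156 ± 15.9 CPM with saline (-0.43), and lost its call whichever of the 6 mice was left out. Slc7a8 stood just outside the threshold at -0.34 (adjusted p 0.051). Cgn, the tight junction protein cingulin, had 26.7, 23.9 and 20.3 CPM with dichloroacetate and 29.9, 51.0 and 52.2 CPM with saline (-0.91, SE 0.17, adjusted p 0.041), and its call was kept in 1 of the 6 fits that leave out a mouse. Other genes that fell are named here after their values were seen. They include Cldn1, a claudin (-0.58), Ddc, which forms dopamine in proximal tubules (-0.48), and Agxt2, a mitochondrial aminotransferase (-0.38). They also include Aldh2, the mitochondrial acetaldehyde dehydrogenase (-0.31), and Ccnd1, cyclin D1 (-0.45). Ccnd1 was the 1 member of 38 proliferation genes called by edgeR, against 0.182% of all genes falling. DESeq2 and limma also called 1 of the 38 lower and none higher.

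Further called genes are given by their differences, and those not selected by the rule were named after their values were seen. Etnppl, which breaks down phosphoethanolamine, had 12.7, 15.1 and 16.4 CPM with dichloroacetate and 23.3, 28.3 and 21.4 CPM with saline (-0.73, edgeR adjusted p 0.041). It was not called by limma and kept its edgeR call in 1 of the 6 fits that leave out a mouse. Nav2, a neuron navigator protein, averaged 17.3 ± 2.62 CPM with dichloroacetate and 27.6 ± 4.38 CPM with saline (SD, n = 3 each). Fabp7, a fatty acid binding protein, fell by 0.66 log2 units. Ggt6, of the gamma-glutamyltransferase family, fell by 0.61, and the aminopeptidase Xpnpep2 by 0.57. Fam20a, Slc22a17, Appl2 and the receptor kinase Erbb2 fell by 0.54, 0.35, 0.31 and 0.30. Among the rises, Plekha8 stood at 0.52 and Nhp2, of the box H/ACA ribonucleoproteins, at 0.44. Tmem237, Atxn7l2, Lypla1 and 1700037H04Rik rose by 0.39, 0.37, 0.33 and 0.30. Dmgdh, the mitochondrial dimethylglycine dehydrogenase, fell by 0.43.

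The pathway the drug acts on changed little in RNA. Of 14 tested genes for the pyruvate dehydrogenase complex, its kinases and phosphatases and the pyruvate carriers, 1 rose (0.128% of all genes) and none fell by edgeR's test, and the list median was 0.10. Pdk3, one of the 4 kinases, had 57.3, 54.8 and 55.4 CPM in dichloroacetate mice and 39.4, 44.1 and 48.3 CPM in saline mice (0.35, SE 0.06, edgeR adjusted p 0.041). It lost this call in 5 of the 6 fits that leave out a mouse, all but the one without saline mouse 3. Pdk2, the most abundant kinase per transcript length (68.1 RPKM with dichloroacetate and 72.7 RPKM with saline), had 189, 230 and 227 CPM with dichloroacetate and 221, 238 and 231 CPM with saline (-0.09, SE 0.07, adjusted p 0.66). Pdk1 stood at 0.11 log2 units (SE 0.10, adjusted p 0.70). Pdk4, which fasting and PPARA raise, spread widely at 13.3, 6.17 and 7.55 CPM with dichloroacetate and 10.2, 18.1 and 9.55 CPM with saline (-0.48, SE 0.30, adjusted p 0.56). The complex's own subunits Pdha1, Pdhb, Dlat, Dld and Pdhx had values between 0.08 and 0.16, with adjusted p from 0.19 to 0.61. DESeq2 called 2 of the 14 genes higher, Pdk3 and Dld, and limma none. The phosphatases Pdp1 and Pdp2 had values of -0.11 and 0.05, the regulatory subunit Pdpr 0.12, and the carriers Mpc1 and Mpc2 0.05 and 0.14.

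**Figure D3:**
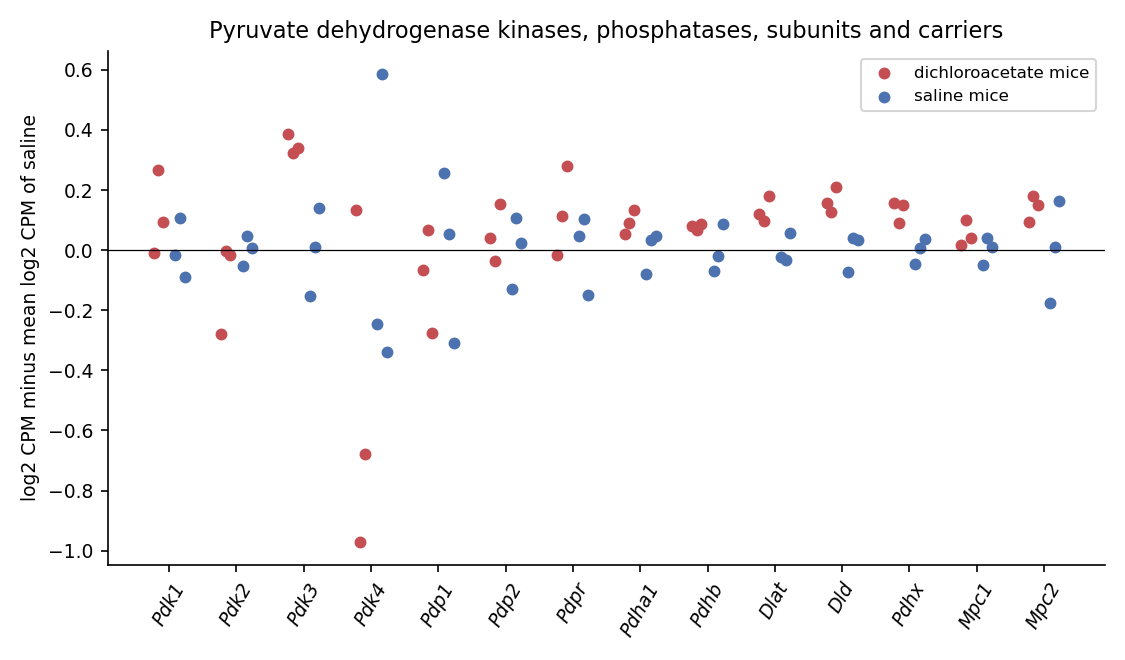
Log2 CPM of each mouse minus the mean log2 CPM of the saline mice, for the 14 genes of the pyruvate dehydrogenase system, with dichloroacetate mice (red) left of saline mice (blue). Pdk3 is the 1 gene called, Pdk4 has the widest spread, and the subunits of the complex lie slightly above 0 in dichloroacetate mice.

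Mitochondrial respiratory genes leaned upwards by small amounts, and none passed edgeR's test. Of 75 nuclear-encoded respiratory chain genes, 74 had a positive log2 fold change, against 48.3% of all tested genes. Their median was 0.12, and 20 were higher (5.7% of all genes) and none lower (6.21%) at an unadjusted p under 0.05. Atp5b of ATP synthase, which had the highest CPM of the list, had a value of 0.08 (SE 0.05, adjusted p 0.57). All 13 mRNAs of mitochondrial DNA were also positive, with a median of 0.14, and 11 had every dichloroacetate mouse above every saline mouse, as 7.64% of all genes did. DESeq2, which called 187 rises over all genes, called 3 of the 75 and 5 of the 13 higher and none lower, and limma called none of either list. The abundant mt-Co1, a subunit of cytochrome oxidase, averaged 45465 ± 499 CPM with dichloroacetate and 42419 ± 901 CPM with saline (SD, n = 3 each), with a log2 fold change of 0.10 that did not pass (edgeR adjusted p 0.42). Genes of 1 complex are not independent of each other, so these counts describe the list. Cytosolic ribosomal protein genes had a median of 0.03 over 76 members, with none past an unadjusted p of 0.05.

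Targets of PPARA, the nuclear receptor that raises fatty acid use, leaned the other way. Of 31 tested, 2 fell and none rose by edgeR's test, against 0.182% of all genes falling, and the median was -0.16. DESeq2 called 4 lower and limma 2. At an unadjusted p under 0.05, 11 were lower (6.21% of all genes) and 3 higher (5.7%). Acsl1, the long-chain acyl-CoA synthetase, had 100, 91.9 and 83.5 CPM in dichloroacetate mice and 147, 124 and 129 CPM in saline mice (-0.54, SE 0.09, adjusted p 0.028). Acot1, a cytosolic acyl-CoA thioesterase, had 55.9, 54.3 and 52.8 CPM against 79.9, 71.0 and 70.6 CPM in saline mice (-0.44, SE 0.07, adjusted p 0.022). Neither Acsl1 nor Acot1 was called without dichloroacetate mouse 3 or without saline mouse 1. The wider list of 29 fatty acid oxidation genes had a median of 0.01 and no member called by edgeR or limma, and DESeq2 called 1 higher. Carbon metabolism lists had small medians, and edgeR and limma called no member. The median was 0.07 over 23 citric acid cycle genes, -0.07 over 24 glycolysis genes, 0.02 over 14 gluconeogenesis and fructose genes and -0.04 over 20 genes of branched-chain amino acid breakdown. DESeq2 called 1 member lower in each of these lists but glycolysis, where it called none, and at an unadjusted p under 0.05 they held 4, 1, 1 and 2 higher and 3, 1, 1 and 2 lower members.

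Several stress and signalling lists held no member called by edgeR in either direction. Over all genes, 5.7% were higher and 6.21% lower at an unadjusted p under 0.05. Of 40 endoplasmic reticulum and integrated stress genes, 15 were higher and 4 lower at an unadjusted p under 0.05, and of 22 heat shock and metal response genes 9 were higher and none lower. Medians of these lists were 0.11 and 0.18. DESeq2 called 7 of the 40 higher and 1 lower, and 1 of the 22 higher, and limma called none. For 24 cholesterol synthesis genes the counts at that p were 8 higher and 1 lower, and DESeq2 called 1 higher. Genes just short of the threshold, chosen after their values were seen, were the chaperone Hspa5 (0.52, adjusted p 0.094), the FOXO target Igfbp1 (-1.20, adjusted p 0.056) and the injury marker Havcr1 (0.53, adjusted p 0.072). Among 34 interferon response, 25 inflammatory and 12 antigen presentation genes, none had an unadjusted p under 0.05 and none was called by edgeR, DESeq2 or limma. Of 31 tubular injury genes, 1 was higher and 1 lower at that p, and DESeq2 called 1 higher.

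**Figure D4:**
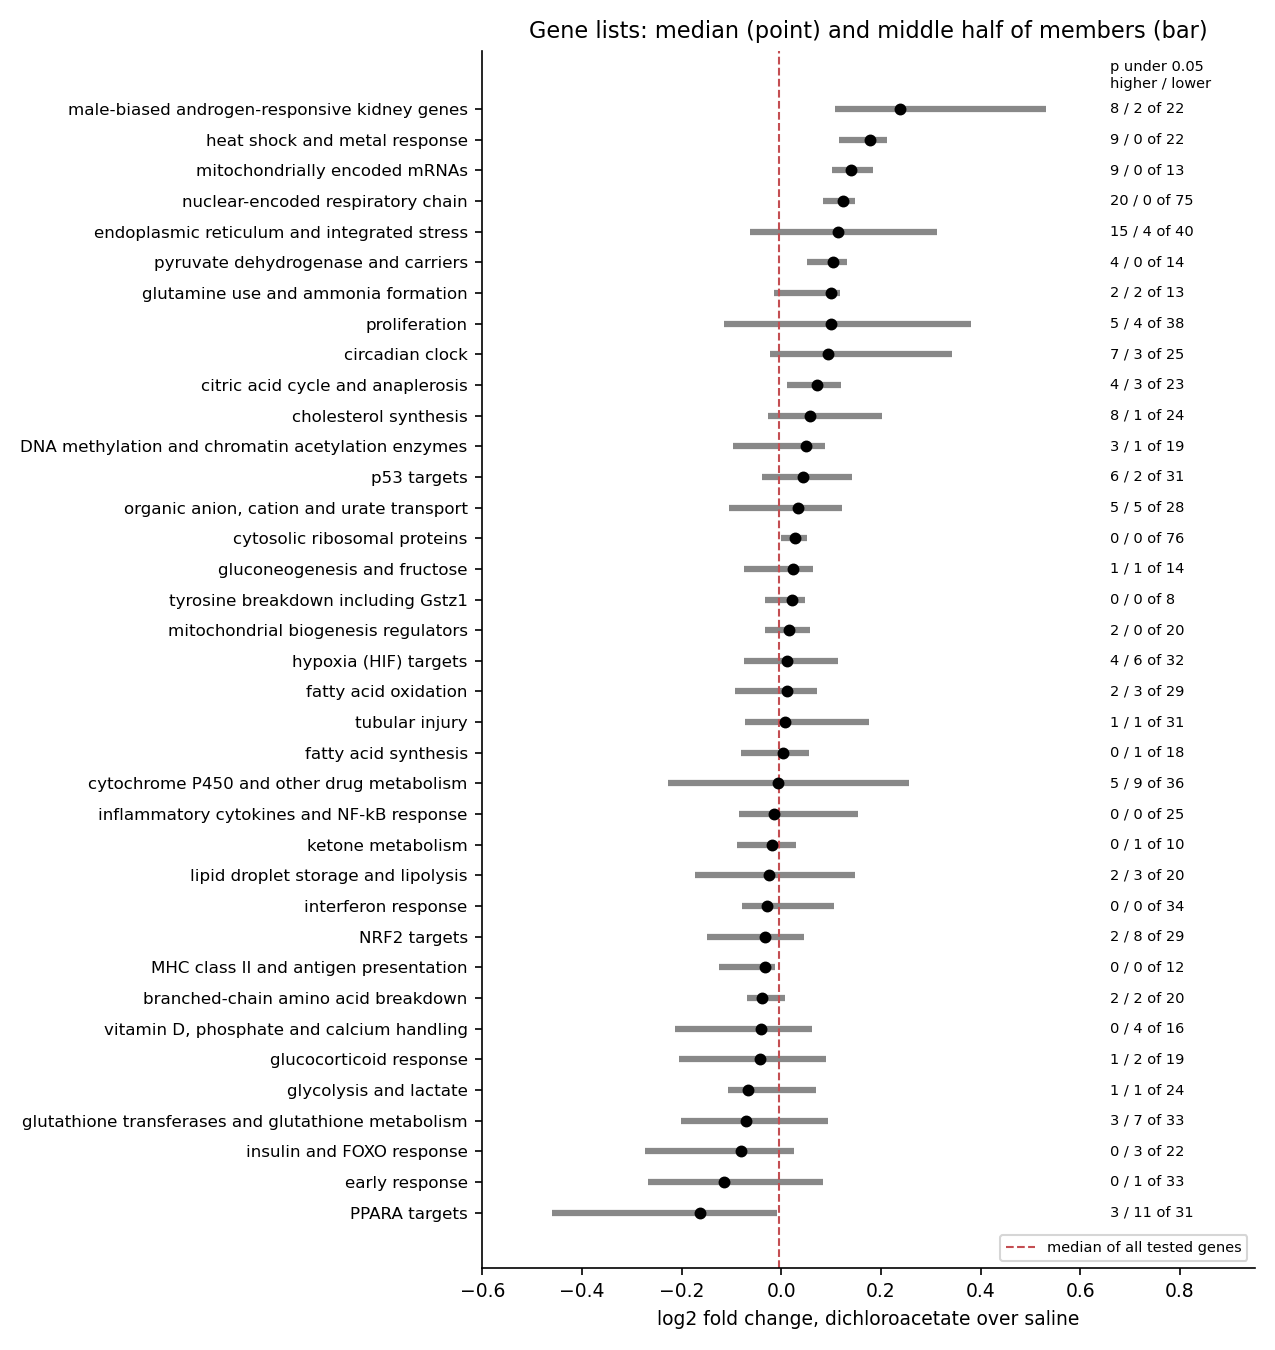
Median (point) and interquartile range (bar) of the members' log2 fold changes, dichloroacetate over saline, for the gene lists of function or process with at least 8 tested members, beside the median of all tested genes (dashed). Numbers at the right give members higher and lower at an unadjusted p under 0.05 of those tested. The male-biased androgen list is highest at 0.24 and the PPARA targets lowest at -0.16.

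Sums of cell type markers did not separate the groups. Over 16 lists of cell type markers and segments, no sum differed with an exact permutation p below 0.2, and a design of 3 against 3 cannot go below 0.1. No marker list of another cell type held a gene called by edgeR or limma, and DESeq2 called 1 loop of Henle and 1 liver marker lower. The summed adipocyte markers were 169 ± 6.70 CPM with dichloroacetate and 174 ± 14.4 CPM with saline (SD, n = 3 each, exact permutation p 0.8). That sum was carried mostly by Pnpla2 (76.3 to 90.6 CPM over the 6 mice) and Fabp4 (43.9 to 50.6 CPM). It cannot show a change in markers as low as Adipoq. At an unadjusted p under 0.05 in edgeR's test, 3 of 11 tested members were higher, against 5.7% of all genes. Adipoq had 0.909, 0.0249 and 0.863 CPM in dichloroacetate mice and 0.0886, 0.0767 and 0.0863 CPM in saline mice. The liver secretory gene Alb had 0.909, 1.07 and 0.863 CPM against 1.84, 6.39 and 2.07 CPM in saline mice. At that p, 5 of 6 tested liver markers were lower without an edgeR call, against 6.21% of all genes. Saline mouse 2 stood out in some of them, as in Apoa1 with 0.133, 1.21 and 0.201 CPM in saline mice. In 3 of the 6 every dichloroacetate mouse was below every saline mouse. The adrenal marker Cyp21a1 was also highest in saline mouse 2, with 0.0443, 0.959 and 0.115 CPM in saline mice. Ttr, at 59.6 to 96.3 CPM, carried most of the liver sum. Pvalb and Cela1 likewise had the highest values in the skeletal muscle sum and the pancreas and gut sum. Ly6g, at 14.8 to 23.8 CPM, made up most of the neutrophil sum, and Star, at 2.33 to 4.68 CPM, was highest in the adrenal sum. These sums cannot show a change in the low markers they contain. Haemoglobin Hbb-bs ran from 72.6 to 198 CPM with dichloroacetate and from 78.7 to 191 CPM with saline. The part of these cells or of blood in the results above was not tested. Adipoq, Alb, Apoa1 and Cyp21a1 were chosen after their values were seen.

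The same drug could be followed in injured kidneys by comparing cisplatin plus dichloroacetate with cisplatin alone. The groups compared share no library with the first comparison, but both comparisons came from the same fit of all 12 libraries. Filter, scaling and the estimate of the spread were common to both, so their calls are not independent. After cisplatin, 31.6% of tested genes were called, 18.1% higher and 13.5% lower. Of the 26 genes that dichloroacetate raised in uninjured kidney, 14 were also called higher and 3 lower. Of the 37 that fell, 10 were also called lower but 20 were called higher. These counts are of identifiers, not of separate loci. Sugct and the overlapping Gm26098, Gm27043 and Gm25020 were all among the 10. Acsm3 with Eri2 and Nudt19 with B230322F03Rik were among the 14. The difference between both effects, tested as an interaction, was called for 38 of the 63 genes, against 18.6% of all genes. It was called for 26 of the 37 falls and 12 of the 26 rises. Odc1 with its copies Gm9115 and Gm7278, Malat1 with ENSMUSG00000092267, and Dmgdh with AW495222 are among these identifiers. All 63 were selected on the effect without cisplatin, which is part of the difference. Their excess over 18.6% follows in part from that selection.

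Acsm3 gave nearly the same change in both settings. It had 160, 156 and 191 CPM with cisplatin plus dichloroacetate and 74.9, 92.8 and 88.6 CPM with cisplatin, which is 0.98 log2 units (edgeR adjusted p 3.7e-05), and the interaction was 0.09 (adjusted p 0.74). Gusb, Nudt19, Pdk3 and, chosen after its values were seen, Tmigd1 were called higher in both, at 0.53, 0.60, 0.31 and 0.51 log2 units after cisplatin. Apoe, Sugct and Cgn were called lower in both. Odc1 differed, with 369, 330 and 387 CPM in the combination and 336, 337 and 327 CPM after cisplatin alone (0.12, adjusted p 0.61). Cry1 was lower with the drug after cisplatin, at 5.07, 5.79 and 5.82 CPM in the combination and 9.997, 11.0 and 10.1 CPM after cisplatin alone (-0.90, adjusted p 1.6e-05). Pdk2, which was not called without cisplatin, had 149, 147 and 148 CPM in the combination and 88.0, 79.9 and 91.6 CPM after cisplatin alone (0.77, adjusted p 1e-05), and Gstz1 had 236, 225 and 241 CPM against 137, 135 and 151 CPM (0.73). Kcnip2, a potassium channel partner, had 0.839, 0.945 and 0.944 CPM with dichloroacetate against 1.48, 1.67 and 1.73 CPM with saline, and 4.23, 4.05 and 4.23 CPM in the combination against 1.87, 2.23 and 2.60 CPM after cisplatin alone. Dhrs3, a retinaldehyde reductase named after its values were seen, likewise fell by 0.41 without cisplatin and was 0.91 higher with it. The call of Kcnip2 without cisplatin, at 0.839 to 1.73 CPM, was lost whichever of the 6 mice was left out.

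**Figure D5:**
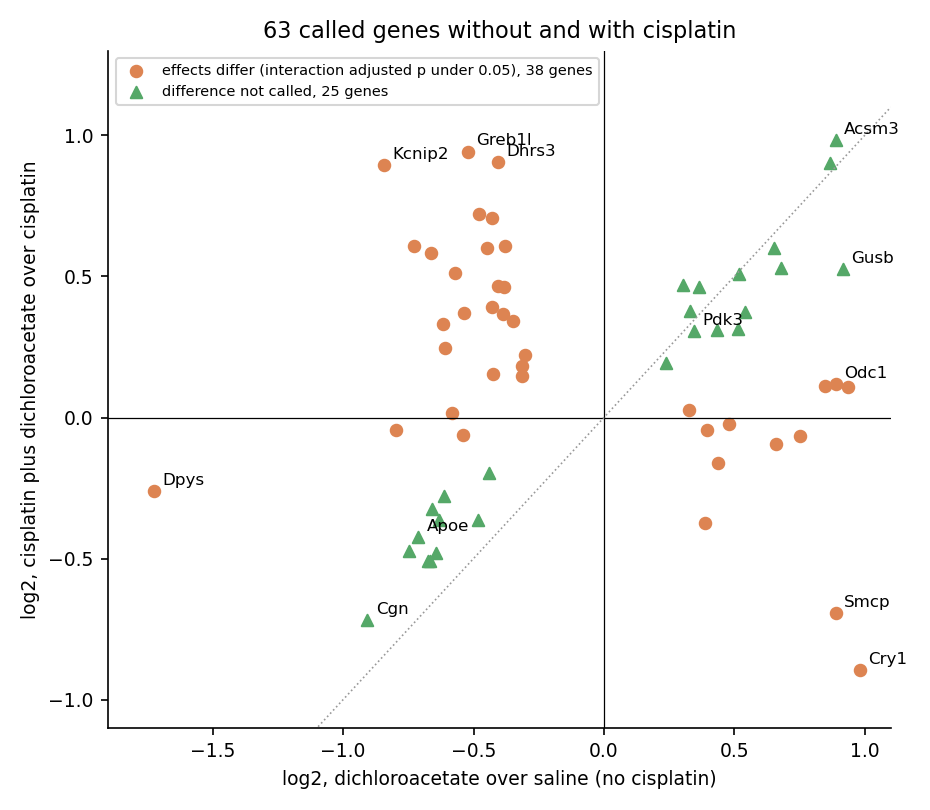
Each point is 1 of the 63 called genes, with the log2 fold change of dichloroacetate over saline on the x axis and of cisplatin plus dichloroacetate over cisplatin on the y axis, and equal effects on the dotted line. Circles mark the 38 genes whose effects differed in the interaction test and triangles the other 25. Cry1 and Smcp sit at the lower right and Kcnip2, Greb1l and Dhrs3 at the upper left.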

How the data were processed

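Kidney RNA was sequenced from 3 mice per group with a TruSeq RNA kit, per the labels' protocols. The submitters' processing notes name HTSeq, TopHat, Trimmomatic, DESeq, Cufflinks and bedtools, with mm10 as build and no versions or order. The authors deposited whole-number counts per Ensembl gene (totals 29505929 to 62237514) and a normalised signal table, equal to the deposited counts divided by 1 size factor per library and used for an alternative only. Of 28991 identifiers, 27955 matched a symbol in GENCODE M21 (GRCm38).

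Genes kept by filterByExpr (20370) were tested with edgeR 4.0.16 in R 4.3.3 (TMM, quasi-likelihood test, all 12 libraries, 1 mean per group, 8 residual degrees of freedom, biological coefficient of variation 0.0917). P-values were adjusted over all genes by Benjamini-Hochberg, and genes under 0.05 are called. SE is the log2 fold change over the square root of F. Scripts were tested on simulated data. Named genes were the called genes with the 10 largest rises and the 10 largest falls (mean of 1 CPM or more in either group), the 5 smallest p in each direction, the pyruvate dehydrogenase list, Gstz1, and up to 4 called members of each other list, or where fewer than 2 were called also up to 2 of highest CPM. Members and all 53 lists were chosen with earlier results of these data known. Alternatives were DESeq2 1.42.0, limma 3.58.1 on log2(normalised value + 1), other scalings and filters, a replicate block, the 6 libraries alone and each mouse left out. A few genes are not reported here. Sequence identity came from BLAST+. Chi-square per degree of freedom between libraries was at least 11.0, so no pair agreed within counting noise, and the labels call the replicates biological. Depth limits low genes, and 3 mice per group limit the rest.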

Additional observations from a re-analysis of the deposited data

Results flagged for a closer look

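For 48 of the genes named above, the effect of dichloroacetate after cisplatin differed from its effect without cisplatin in the interaction test (edgeR, adjusted p under 0.05, which 18.6% of all genes passed). Values are log2 fold changes of cisplatin plus dichloroacetate over cisplatin minus those of dichloroacetate over saline.

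Among genes that rose without cisplatin the difference was negative. It was -1.88 for Cry1, -1.58 for Smcp, -0.83 for Gm9115, -0.82 for ENSMUSG00000092267, -0.77 for Odc1, -0.76 for Tmem237 and for Malat1, and -0.73 for Gm7278. It was -0.60 for Nhp2, -0.50 for Acot9, -0.44 for Ccng1 and -0.30 for Pank3. Gm9115 and Gm7278 are near copies of Odc1 and give no separate evidence.

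Among genes that fell without cisplatin the difference was positive. It was 1.74 for Kcnip2, 1.46 for Dpys and for Greb1l, 1.34 for Etnppl, 1.31 for Dhrs3, 1.25 for Nav2 and 1.20 for Ddc. It was 1.14 for Slc7a7, 1.08 for Xpnpep2, 1.05 for Ccnd1, 0.99 for Agxt2, 0.95 for Cyp2d26, 0.91 for Acsl1 and 0.87 for Slc7a9. It was 0.86 for Ggt6, 0.85 for Cyp2d22, 0.82 for Dmgdh, 0.75 for Pzp and for AW495222, 0.69 for Slc22a17 and 0.60 for Cldn1. The smallest were 0.58 for Gstt1, 0.52 for Erbb2, 0.50 for Aldh2, 0.48 for Fam20a and 0.46 for Appl2. These genes were selected on the effect without cisplatin, which is part of the difference. Its direction, and how many of them passed, follow in part from that selection.

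Genes not called without cisplatin also differed. In the pyruvate dehydrogenase system and its surroundings the difference was -1.47 for Pdk4, 0.87 for Pdk2, 0.70 for Gstz1, 0.53 for Pdp2, 0.32 for Pdha1, 0.22 for Atp5b and 0.21 for Mpc1. It was 1.65 for Igfbp1, 0.40 for Slc7a8 and -1.43 for Havcr1.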

How the results depend on the processing

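The direction of change without cisplatin was the same for all 63 called genes under every alternative, but the number of calls was not. The groups did not overlap in any of the 63, so refits of the same libraries could hardly reverse a direction. The shared direction is therefore no separate support. Against 26 rises and 37 falls, DESeq2 called 187 and 163, a table with no filter beyond 1 count 55 and 64, and the 6 libraries alone 6 and 9, of which 14 were among the 63. Over the fits that leave out 1 mouse the rises ranged from 7 to 72 and the falls from 7 to 54, and 12 to 48 of the 63 calls were kept. Calls were fewest without dichloroacetate mouse 1 (9 and 7), without saline mouse 1 (7 and 15) and without saline mouse 2 (7 and 14), and most without saline mouse 3 (72 and 54). Without dichloroacetate mouse 3 there were 9 and 24, and without dichloroacetate mouse 2 there were 42 and 27. The cause of these shifts was not tested.

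With the replicate number as a block, 56 genes rose and 61 fell, and 17 and 21 in the 6 libraries alone. Over all genes the same-numbered saline and dichloroacetate mice did not all deviate together (correlations of 0.12, -0.201 and 0.0166), although Npas2, Arntl and Per2 followed the number in both groups. Dichloroacetate and combination mice of the same number did correlate (0.326, 0.269 and 0.336), and the block moved the interaction calls to 3969, against 3783. Other scalings and limma kept each count within 1.5 times, and the interaction count ranged from 2934 to 3767 over the fits that leave out 1 mouse. Of the single genes named, 4 changed sign when 1 mouse was left out, none of them called: Gstz1 (-0.0299 to 0.0749), Hbb-bs (-0.81 to 0.24), Pdp1 (-0.24 to 0.0249) and Pdp2 (-0.0108 to 0.11).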
